A study of Rattus norvegicus with 4 samples.

Results

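Regulators of ferroptosis that act on membrane lipids, antioxidant cofactors or the outer mitochondrial membrane were followed: Acsl4, Lpcat3, Alox15, Sat1, Aifm2, Gch1, Cisd1, Vdac2 and Vdac3. They were chosen by symbol, through the RefSeq accession of each non-control probe, and all 9 genes were found on the array, with 10 probes among 45598 and 9 genes among 16581 named genes. The samples were cultures of NR8383, an alveolar macrophage line established from lung lavage of a normal rat and used after 20 passages. Each of the 4 cultures had received 2 µg/mL of Fe2O3 particles (NRCWE018) for 4 h, and each RNA was hybridised to 1 single-colour array. The study also has unexposed control cultures, which were not analysed here, so no value below is an effect of the particles. The results describe which of these genes were above background in exposed cells and how far the arrays of the 4 replicate cultures differed. With 1 array per culture, differences between cultures and between hybridisations cannot be told apart.

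Ferroptosis is a form of cell death in which iron drives the peroxidation of polyunsaturated fatty acids in membrane phospholipids. Enzymes that place such fatty acids into phospholipids, or oxygenate them, favour it. The glutathione peroxidase GPX4, reduced ubiquinone and tetrahydrobiopterin limit it, and proteins of the mitochondrial outer membrane adjust the iron and metabolite traffic on which it depends. Macrophages of the lung meet iron both as particles and in engulfed red cells.

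The promoters of 4 of the genes are shown because their products stand for the branches described below: Acsl4 for lipid activation, Sat1 for polyamine catabolism, and Aifm2 and Gch1 for the lipid antioxidants. Each run holds the 250 bases before the RefSeq start of the gene on the GRCr8 build, 5′ to 3′ on the gene's strand. Capitals mark matches to TGANNNNGC, a loose form of the core of the antioxidant response element bound by NRF2, searched on both strands. The base after TGA was free in this search. No match in these 4 promoters had C at that base, so none met a stricter form of the core that requires C there. How often such a form occurs in all rat promoters was not tested.
Acsl4 (chrX:110803262-110803511, minus strand): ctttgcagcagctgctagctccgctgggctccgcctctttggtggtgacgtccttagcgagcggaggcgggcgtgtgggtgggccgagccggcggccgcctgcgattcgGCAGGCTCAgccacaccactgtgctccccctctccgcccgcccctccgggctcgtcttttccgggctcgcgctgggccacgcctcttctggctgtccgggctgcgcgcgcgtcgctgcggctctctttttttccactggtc
Sat1 (chrX:44007839-44008088, plus strand): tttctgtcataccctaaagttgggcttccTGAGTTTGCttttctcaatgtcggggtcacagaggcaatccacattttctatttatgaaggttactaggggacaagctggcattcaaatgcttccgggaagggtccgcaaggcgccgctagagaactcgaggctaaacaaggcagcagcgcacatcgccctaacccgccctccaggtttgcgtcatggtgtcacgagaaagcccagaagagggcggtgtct
Aifm2 (chr20:30207579-30207828, plus strand): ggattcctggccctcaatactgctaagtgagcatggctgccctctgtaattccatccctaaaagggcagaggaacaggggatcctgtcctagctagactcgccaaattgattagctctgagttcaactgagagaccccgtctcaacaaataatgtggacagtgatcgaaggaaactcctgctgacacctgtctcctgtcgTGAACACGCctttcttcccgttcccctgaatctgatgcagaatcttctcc
Gch1 (chr15:22917413-22917662, minus strand): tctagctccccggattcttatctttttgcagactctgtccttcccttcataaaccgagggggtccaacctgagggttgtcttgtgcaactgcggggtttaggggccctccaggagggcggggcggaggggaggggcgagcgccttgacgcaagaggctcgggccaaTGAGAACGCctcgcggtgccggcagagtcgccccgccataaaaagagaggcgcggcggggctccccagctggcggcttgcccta

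RefSeq promoters were matched for 7 of the 9 genes, the other two being Alox15 and Vdac3. The letters TGANNNNGC occurred in 5 of the 7 (Acsl4, Sat1, Aifm2, Gch1 and Cisd1) and in 34.7% of 33469 rat promoters of the same length. The Acsl4 match lay on the opposite strand. Read on the strand of each match, the base after TGA was G in Acsl4, Sat1, Gch1 and Cisd1, and A in Aifm2. It was C in none of them, so these are matches to the loose form only. In Aifm2 the match began 50 bases before the start, and in Gch1 it began 84 bases before it and overlapped a CCAAT box. The GC box GGGCGG occurred in 6 of the 7 and in 30.5% of all promoters, the exception being Aifm2, whose window had the lowest GC content of the 7, 50.4%. The highest was 72.4% in Vdac2, and the median of all promoters was 51.2%. TATAAA and the cyclic AMP element TGACGTCA occurred in none of the 7, against 12.9% and 1.59% of all promoters. These matches describe letters, and no binding was measured.

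The lipid, antioxidant and mitochondrial arms were all measurable in exposed macrophages, except for the lipoxygenase Alox15. Of the 9 genes, 8 were well above background on all 4 arrays, and Alox15 on none. The shares over all named genes were 50.5% for all 4 arrays and 43.0% for none. Levels are log2 values of the processed signal divided by the 75th percentile of its array, so that 0 stands for a spot at that percentile. Probes differ in how well they bind, so a level is compared between arrays for 1 probe and never between genes. In a culture, fewer cells that express a gene and less RNA per cell cannot be told apart.

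**Figure D1:**
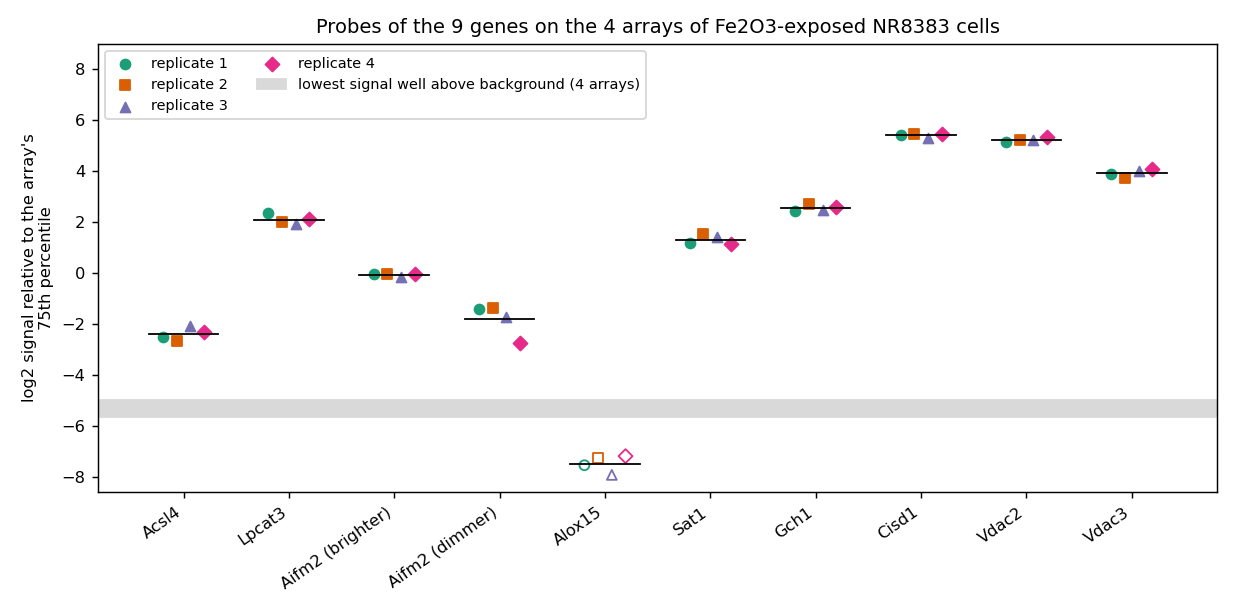
Level of each of the 10 probes on the 4 arrays (log2 of signal over the 75th percentile; filled symbols, well above background; open symbols, not; black bars, mean of 4 arrays; levels of different probes are not comparable). The grey band spans the lowest signal called well above background on the 4 arrays, from -5.65 to -5.0, and Alox15 lies under it on every array, while the dimmer Aifm2 probe sits low on replicate 4.

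Acsl4 encodes the acyl-CoA synthetase that activates arachidonic and adrenic acid for entry into phospholipids. On replicates 1 to 4 the probe gave a processed signal of 187, 154, 259 and 152 and a level of -2.52, -2.68, -2.06 and -2.31 (mean -2.39 ± 0.27, SD, n = 4). Replicate 3 was highest and replicate 2 lowest, 1.53-fold apart after scaling, and this order held under all 5 other normalizations and after subtraction of the neighbouring spots. The SD of 0.27 was close to that of probes of like level, 0.23, and the gene did not pass the test of excess spread described below (limma adjusted p = 0.998).

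Lpcat3 encodes the acyltransferase that inserts such acyl chains into lysophospholipids. Its level was 2.35, 2.02, 1.91 and 2.11 on replicates 1 to 4 (mean 2.10 ± 0.19, SD, n = 4). Here replicate 1 was highest and replicate 3 lowest, 1.35-fold apart, in every normalization run. Replicate 3 was thus the highest for Acsl4 and the lowest for Lpcat3, and neither gene passed the test of excess spread (limma adjusted p = 0.998 for each). The SD of Lpcat3 was 0.19, against 0.17 fitted for probes of like level.

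Alox15 encodes a lipoxygenase that oxygenates polyunsaturated fatty acids, also within phospholipids. On replicates 1 to 4 it gave a signal of 5.73, 6.43, 4.45 and 5.18, where the lowest signals called well above background were 22.8, 20.7, 21.5 and 23.7. The scanner software's own error of the signal was 83.5%, 66.1%, 100% and 100% of it. The raw spot was 1.28 to 1.60 times as bright as its local background, and this ratio was not examined for other probes under the limit. The weaker mark "positive and significant" was given on replicates 1 and 2. Alox15 had a single probe, and its transcript may be present under the limit of the array.

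Sat1 encodes the acetyltransferase that starts polyamine breakdown and is a known p53 target linked to lipoxygenase activity. Its level was 1.17, 1.54, 1.41 and 1.15 on replicates 1 to 4 (mean 1.32 ± 0.19, SD, n = 4). Replicates 2 and 3 lay above replicates 1 and 4. The highest and lowest arrays were 1.30-fold apart, and the SD of 0.19, against 0.17 fitted for probes of like level, did not pass the test of excess spread (limma adjusted p = 0.998).

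Gch1 encodes GTP cyclohydrolase, the rate-limiting enzyme of tetrahydrobiopterin synthesis. It was at 2.44, 2.72, 2.46 and 2.60 on replicates 1 to 4 (mean 2.56 ± 0.13, SD, n = 4). The arrays lay within 1.21-fold of each other, and the spread between them did not pass the test (limma adjusted p = 0.998).

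Aifm2 encodes FSP1, the oxidoreductase that keeps ubiquinone reduced at the plasma membrane, and was the only gene of the 9 with 2 probes. The brighter probe (A_43_P11186) was at -0.03, -0.03, -0.16 and -0.05 on replicates 1 to 4 (mean -0.07 ± 0.06, SD, n = 4), so the 4 arrays lay within 0.13 on the log2 scale. The dimmer probe (A_44_P438613) was at -1.42, -1.38, -1.71 and -2.74 (mean -1.81 ± 0.64, SD, n = 4). Replicate 4 stood apart on the dimmer probe alone, and the highest and lowest arrays were 2.58-fold apart. Both probes carry the same transcript accession, and neither was marked as an outlier spot on any array.

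The brighter probe exceeded the dimmer one by 1.38, 1.35, 1.55 and 2.69 on the log2 scale on replicates 1 to 4, a range of 1.35. Over the 2502 pairs of probes that share a named gene and are above background on all arrays, the median of this range was 0.35, and 97.4% of pairs had a smaller range than Aifm2. Without replicate 4 the range was 0.20. This comparison was chosen after the values were seen and carries no test. Around the dimmer probe, 51 spots within 5 rows and 5 columns were above background on all arrays. Their median deviation from their own means was 0.14, 0.19, 0.16 and -0.46 on replicates 1 to 4, and only 2.02% of spots on replicate 4 had a lower value around them. After the neighbours' median was subtracted from every spot, the dimmer probe lay at -1.56, -1.56, -1.87 and -2.28, with an SD of 0.34 in place of 0.64. Around the brighter probe the neighbours deviated by 0.02 on replicate 4.

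**Figure D2:**
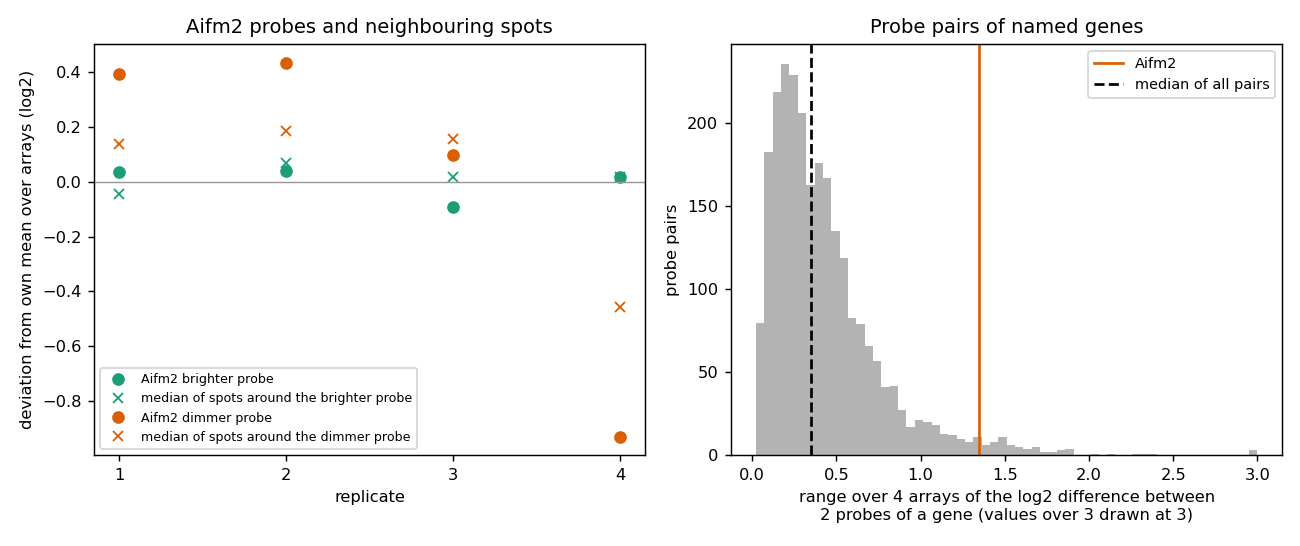
Left, deviation of each Aifm2 probe from its own mean (dots, log2) and median deviation of the neighbouring spots (crosses) on replicates 1 to 4; the dimmer probe and its neighbours, at -0.46, are both low on replicate 4. Right, range over the 4 arrays of the difference between 2 probes of a gene for 2502 pairs; Aifm2 is at 1.35 and the median pair at 0.35.

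Cisd1 encodes mitoNEET, an iron-sulfur protein of the outer mitochondrial membrane that restrains mitochondrial iron uptake. It was at 5.43, 5.44, 5.29 and 5.48 on replicates 1 to 4 (mean 5.41 ± 0.08, SD, n = 4), within 1.14-fold. Which array was highest changed with the normalization.

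Vdac2 and Vdac3 encode voltage-dependent anion channels of the same membrane, which the ferroptosis inducer erastin binds. Vdac2 was at 5.16, 5.22, 5.23 and 5.33 on replicates 1 to 4 (mean 5.23 ± 0.07, SD, n = 4), and its 4 arrays lay within 1.12-fold. Vdac3 was at 3.90, 3.75, 4.02 and 4.10 (mean 3.94 ± 0.15, SD, n = 4), with 1.28-fold between the highest and the lowest array. Replicate 2 was lowest for Vdac3 in every normalization run. Replicate 4 was its highest array after scaling to the 75th percentile, and replicate 3 was its highest in each of the other normalizations. The spots around Vdac3 deviated by 0.22 on replicate 4, more than around 97.8% of spots. With the neighbours subtracted, Vdac2 was at 5.23, 5.23, 5.24 and 5.22, an SD of 0.01. The subtraction also lowered the SD of Gch1, Cisd1, Vdac3 and the dimmer Aifm2 probe. It raised the SD of Sat1 (0.19 to 0.24), Acsl4 (0.27 to 0.29), Lpcat3 (0.19 to 0.20) and the brighter Aifm2 probe (0.06 to 0.08). The limma adjusted p for spread was 0.998 for Cisd1, Vdac2 and Vdac3. Probe sequences were not used here, so binding of related transcripts such as Vdac1 was not checked.

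The spread of each probe between the 4 arrays was set against probes of like level with limma. An upper-tail F test was used, with Benjamini-Hochberg adjustment over 16659 probes above background on all arrays. Of these, 28 passed (0.168%), and 984 had an unadjusted p under 0.05 (5.91%). The number that passed was 56 without replicate 1, 11 without replicate 2, 18 without replicate 3 and 53 without replicate 4. Of the 9 tested probes of the ferroptosis regulators, 0 passed in limma, and 1 had an unadjusted p under 0.05. That probe was the dimmer Aifm2 probe (limma adjusted p = 0.317). Its adjusted p was 0.998 without replicate 4 and 0.972 with the neighbouring spots subtracted. With normexp background correction it was 0.0289 and passed. The median SD of the 9 probes was 0.15, against 0.19 for all tested probes, and 5 of the 9 lay under the SD fitted for their level, as did 9491 of all 16659. The scanner software's error was 10.0% to 11.3% of the signal for these 9 probes, or 0.14 to 0.15 on the log2 scale. That error was a near-constant share of the signal, 10.0% on every array for Cisd1, Vdac2 and Vdac3. It therefore does not measure the noise of single spots. The SD between arrays was under it for the brighter Aifm2 probe, Gch1, Cisd1 and Vdac2, from which no conclusion is drawn.

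**Figure D3:**
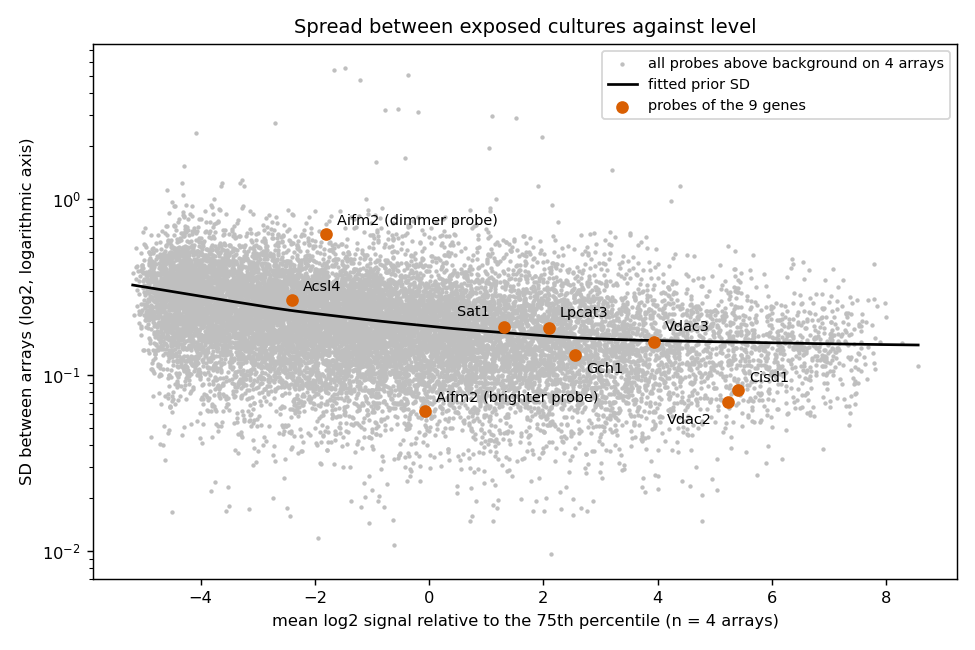
SD between the 4 arrays (log2, logarithmic axis) against mean level for 16659 probes (grey), the SD fitted for each level (line) and the 9 tested probes of the ferroptosis regulators (orange). The dimmer Aifm2 probe, with an SD of 0.64, is farthest above the line, and the other 8 lie near or under it.

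On each array some of the 9 probes lay above their own mean and others below it. Their median deviation from their own means was -0.04, 0.03, -0.01 and 0.05 on replicates 1 to 4, beside -0.04, 0.01, -0.03 and 0.08 for all tested probes. In replicate 4, 7 of the 9 were above their own mean, beside 68.8% of all tested probes. Both the count and the sign in replicate 4 turned with the scaling, but not with normexp background correction. There 6 of the 9 were above their own mean and their median deviation was 0.05, beside 79.0% and 0.13 for all tested probes. With the percentile taken over detected probes, 4 of the 9 were above their own mean and their median deviation was -0.02, beside 54.1% and 0.02 for all tested probes. After quantile normalization it was 2 of the 9 and -0.03, beside 53.0% and 0.01, and after cyclic loess 3 of the 9 and -0.03, beside 52.9% and 0.01. With outlier spots kept it was 4 of the 9 and -0.02, beside 54.0% and 0.02. Replicate 4 had the lowest 75th percentile of signal, 756, against 984 to 1082 on the others, and the largest share of outlier spots, 1.62% against 1.13% to 1.21%. It had 37.8% of probes above background, against 40.2% to 41.2%. No spot was saturated, and the part of these array differences in the values above was not tested.

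Of the genes around these regulators, the shares above background on all arrays are read beside the 50.5% of all named genes. Of 16 core glutathione and iron genes of ferroptosis, 14 exceeded background on every array, among them the lipid peroxidase Gpx4 (7.15 ± 0.07) and the cystine transporter subunits Slc7a11 (-0.72 ± 0.22) and Slc3a2 (2.83 ± 0.11), all as log2 level ± SD, n = 4. The glutathione synthesis subunit Gclm and the cyclooxygenase Ptgs2 were above background on none. Each had a single probe, and how well these probes bind was not tested, so absence of the transcript is not shown. In the list for polyunsaturated phospholipids, 10 of 16 (62.5%) were above background, the nearest of these lists to the share of all named genes, among them the acyl-CoA synthetases Acsl1 (1.31 ± 0.26), Acsl3 (-1.15 ± 0.15) and Acsl5 (3.09 ± 0.21). Lpcat1 was above background on 3 arrays, and the desaturases Fads1, Fads2 and Scd, with Acsl6 and Mboat2, on none. Of 6 lipoxygenase genes and partners 4 (66.7%) were above background: Alox5 (4.60 ± 0.08), which makes leukotriene precursors, its activating protein Alox5ap, the epidermal Alox12b (-4.22 ± 0.22) and Pebp1. Alox12 and Aloxe3 shared the state of Alox15, above background on no array.

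The measured genes of the cofactor branches to which Aifm2 and Gch1 belong were all above background. For ubiquinone and quinone reduction this was 12 of 12, with the quinone reductase Nqo1 (-1.56 ± 0.05) and the synthesis enzymes Coq2 (0.40 ± 0.12) and Coq3 (1.63 ± 0.10). For tetrahydrobiopterin it was 6 of 6, with the synthesis enzymes Pts, at -2.16, -2.22, -2.69 and -2.71 on replicates 1 to 4, and Spr (0.46 ± 0.22), and the recycling enzyme Qdpr (4.08 ± 0.05). The feedback regulator of Gch1, Gchfr, was among them.

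Around Sat1, 9 of 9 polyamine genes were above background, including ornithine decarboxylase Odc1 (2.14 ± 0.24) and spermidine synthase Srm (3.40 ± 0.18). Spermine synthase Sms had 3 probes, of which 1 (A_44_P1370828) passed the spread test, at -0.73, -0.80, -0.30 and -2.57 on replicates 1 to 4 (limma adjusted p = 0.0435). Its neighbouring spots deviated by -0.70 on replicate 4, and with the neighbours subtracted its limma adjusted p was 0.262. The other two Sms probes did not pass (limma adjusted p of 0.928 and 0.998). Of 11 genes of the outer mitochondrial membrane and CISD family, 9 were above background, with Vdac1 at 4.79 ± 0.05, Cisd2 at -1.19 ± 0.31 and Cisd3 at 2.81 ± 0.18. The hexokinase Hk1, with a single probe, and the ubiquitin ligase Nedd4, with 2, were above background on none. How well these probes bind was not tested. Of the 81 tested probes in these 7 lists, that Sms probe was the only 1 to pass in limma, and 1 other, of Alox5ap, had an unadjusted p under 0.05.

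**Figure D4:**
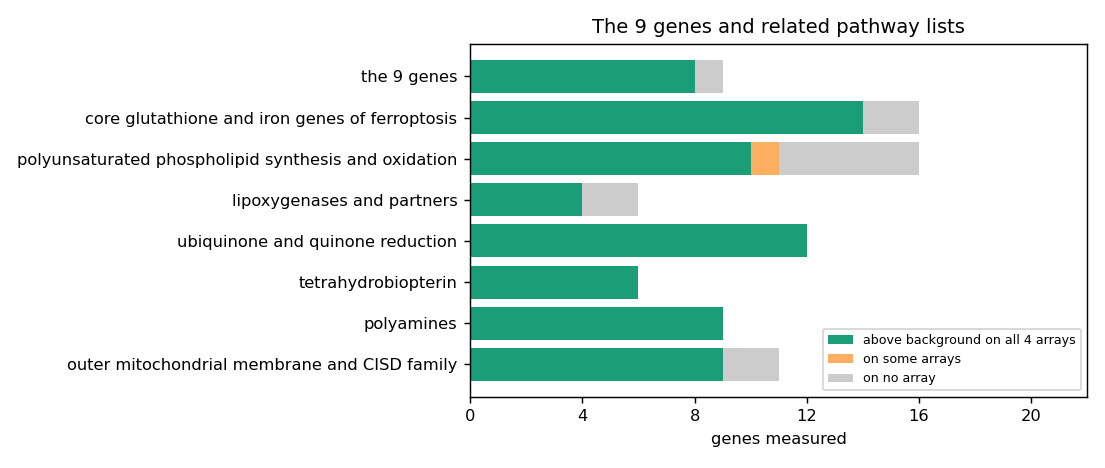
Number of measured genes above background on all 4 arrays (green), on some (orange) and on no array (grey) for the 9 ferroptosis regulators and 7 related lists. The ubiquinone, tetrahydrobiopterin and polyamine lists are above background in full, with 12, 6 and 9 genes.

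The macrophage label was set beside lists of markers. Of 11 macrophage markers, 9 were above background on all arrays, and Marco and Adgre1, each with a single probe, on none. How well these probes bind was not tested. Adgre1 was at -5.33 on replicate 1, where the lowest level called well above background was -5.55. None of the 5 lung epithelium markers was well above background on any array, nor were the 2 measured markers of granulocytes and mast cells. Cd3d was above background among 3 lymphocyte markers, and Pecam1 and Cdh5 among 4 of endothelium and fibroblasts.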

How the data were processed

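Total RNA of 4 exposed cultures was labelled with Cy3 and read on 1-colour rat arrays. Per the file headers, the authors extracted intensity values with Agilent Feature Extraction (version 11.0.1.1 in the submitters' processing notes): background-subtracted and spatially detrended within each array, with no scaling between arrays. Other deposited columns used were the signal error, spot and background intensity and flags of 0 or 1. The authors' scaling and tests are not given in the sources used here.

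Control spots, and outlier spots where another spot of the probe remained, were left out. From log2 signal the log2 of the 75th percentile of the non-control spots without an outlier mark on that array was subtracted. Repeat spots were then averaged. A probe was above background where most of its spots were. Accessions were matched without version to RefSeq (GRCr8, names only), naming 21109 of 45598 probes. Pathway genes absent from the match were Pdss1 and Paox. For genes with several probes the one above background on most arrays, then the brightest, was used. A gene counted as above background can therefore have other probes that were not. For Slc7a11, 1 of 2 probes was above background on all arrays, and for Dhodh and Smox 1 of 3. Aifm2 and Sms are given by probe. The test of spread (limma 3.58.1, R 4.3.3) set each probe's variance against a robust prior variance with a trend on level (10.2 prior degrees of freedom). Tested on simulated data for 16659 probes at the measured levels, it called 55% of probes given 5 times the SD and 92% of those given 10 times, with 3 unchanged probes called.

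Alternatives were other scalings, background correction, detection marks, priors, probe choice and omission of each replicate. The files used here have no mean spot column, so normexp (offset 50) took the median spot signal. The named genes were all probes of the 9 genes, the first 3 measured genes of each list with values, and genes passing the spread test; other list genes are named only as above background or not. Alox5ap values were added after they were seen. The genes and lists were chosen with earlier results of these data known. Each group value rests on 4 arrays, whose number limits the precision.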

Additional observations from a re-analysis of the deposited data

Results flagged for a closer look

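The brighter Aifm2 probe was lowest on replicate 3, at -0.16 against -0.05 to -0.03 on the other arrays. The gap to the nearest array was 0.855 of the whole range, above the 95% critical value of Dixon's test for 4 samples. It was 1 of 29 sets of 4 values examined, where chance gives about 1 in 20. The whole range was 0.13 on the log2 scale. After quantile normalization replicate 3 was still lowest but stood less apart, with deviations of 0.06, 0.05, -0.08 and -0.03 on replicates 1 to 4. Dixon's test was not run under the other scalings. The scanner software's error was 0.14, but it is a near-constant share of the signal and does not measure the noise of this probe.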

How the results depend on the processing

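The number of the 9 genes above background on all arrays was 8 under every alternative run: the positive and significant mark, at least 1 array, every probe of the gene, and each replicate left out. The number of probes with excess spread, 28, became 304 with normexp background correction, 12 with a constant prior variance, 66 with probes above background on at least 1 array, and 16 with 1 probe per named gene. It ranged from 11 to 56 with 1 replicate left out. It was within 1.5 times the reported number under the other settings run: 4 other scalings or spot choices, the prior without robustness, and the subtraction of neighbouring spots, which was chosen after seeing the data. Of the probes of the 9 genes, 0 passed in limma in each of these except normexp, where 1 did, the dimmer Aifm2 probe; the cause was not tested. The zero point of the level scale moved by -3.41 for the median probe with the percentile over detected probes, by -0.18 with outlier spots kept and by 0.11 with normexp. No paired analysis was possible because the samples form 1 group. The error of the Alox15 signal was 66.1% to 100% of it, so differences between cultures were not detectable there.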

Other observations

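Alox5ap, which presents arachidonic acid to the 5-lipoxygenase Alox5, differed most between the arrays among the tested lipoxygenase genes and partners. It was named for this after its values were seen. Its level was -4.43, -5.10, -4.89 and -2.78 on replicates 1 to 4, with replicate 4 above the other three (SD 1.05, n = 4). On replicates 1 to 3 this was near the lowest level called well above background, -5.55, -5.57 and -5.65. Alox5ap had a single probe. It did not pass the spread test over all probes (limma adjusted p = 0.181). The spots around it deviated by 0.10 on replicate 4, and its limma adjusted p was 0.125 with the neighbours subtracted. Alox5 itself was at 4.57, 4.61, 4.52 and 4.71 on the same arrays.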
